A study of Rattus norvegicus with 6 samples.

Results

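The 10 genes described here encode secreted peptides, or precursors of such peptides, that are known to be induced when sensory axons are cut: Gal (galanin), Npy (neuropeptide Y), Vip (vasoactive intestinal peptide), pituitary adenylate cyclase activating polypeptide (Adcyap1), neurotensin (Nts), cholecystokinin (Cck), the granin-like precursor Vgf, the urocortins Ucn and Ucn2, and corticotropin releasing hormone (Crh). Members were taken as the probe sets of the exon array (a probe set is a small group of probes that usually covers 1 exon) whose annotation gives exactly 1 gene symbol and whose symbol is that of a listed gene. This gave 52 of 226599 probe sets and 9 of the 13378 genes with at least 1 such probe set. Adcyap1 had no probe set annotated with its symbol alone and was not analysed here.

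RNA came from the L5 dorsal root ganglia (DRG, the ganglia that hold the cell bodies of sensory neurones) of male Wistar rats. The SNT group was taken 7 days after the spinal nerve at L5 had been transected, and the naive group came from rats without this surgery. Each array carried polyA-enriched RNA pooled from 4 animals, with 3 pools per group, so that the spread between arrays is a spread between pools and not between single animals. A transected spinal nerve cuts the axons of most neurones of that ganglion, and the ganglion was used whole, with its glia, immune and vascular cells.

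Neuropeptides are cut out of larger precursor proteins, packed into dense-core vesicles and released on firing, and most of them act on G protein-coupled receptors of nearby cells. In the uninjured rat DRG galanin, neuropeptide Y and vasoactive intestinal peptide are made by few neurones, while the calcitonin gene-related peptides and substance P are made by many. Cutting the peripheral axon is known to raise the first set and to lower the second, and the loss of factors carried from the target and the local release of cytokines of the interleukin 6 family are among the known signals.

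All members but Cck and Crh had an entry in a RefSeq table of promoters of the rat build GRCr8, which holds, for each of 33469 starts, the 300 bases from 250 before to 50 after the transcript start. For Vip and Vgf the start in that table lies inside the span of the gene in the same build, so other starts of these genes were not searched. Each stretch was searched on both strands for motifs of factors linked to injury or to cyclic AMP. The cyclic AMP response element (CRE), TGACGTCA, stood in 1.83% of all promoters of the table, its shorter core TGACG, which the full element contains and which reads as CGTCA on the other strand, in 21.2%, the AP-1 motif TGANTCA in 7.33%, and the STAT motif TTCNNNGAA in 8.87%. The full CRE was found in Ucn, 110 bases before the start, and in Vgf, 90 bases before it. The core alone was found 97 bases before the start in Vip and 63 bases before it in Gal. An AP-1 match stood 167 bases before the start of Ucn2, and Nts held an AP-1 match 212 bases and a core match 171 bases before its start. The promoters of Npy and Adcyap1 held no match to these 3 motifs, and no STAT match was found in any of the 8. These are matches of letters and not sites shown to be bound in these ganglia. The stretches around the matches are printed because they are the only regulatory sequence of the members examined here, with the matched letters in capitals and up to 40 bases on either side (the Nts stretch begins at the edge of the window searched).

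The Gal stretch lies at chr1:210084591-210084675 on the minus strand, the Vip stretch at chr1:44470343-44470427 on the plus strand, the Nts stretch at chr7:39461015-39461138 on the minus strand, the Vgf stretch at chr12:25277063-25277150 on the minus strand, the Ucn stretch at chr6:30957936-30958023 on the plus strand and the Ucn2 stretch at chr8:118515904-118515990 on the plus strand, all in GRCr8 and all written 5′ to 3′ along the gene.
Gal: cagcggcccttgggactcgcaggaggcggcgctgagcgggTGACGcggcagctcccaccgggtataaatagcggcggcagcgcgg
Vip: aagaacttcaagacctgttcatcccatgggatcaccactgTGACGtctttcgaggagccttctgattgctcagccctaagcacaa
Nts: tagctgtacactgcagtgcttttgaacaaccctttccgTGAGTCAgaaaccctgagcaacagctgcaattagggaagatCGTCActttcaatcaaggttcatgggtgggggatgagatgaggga
Vgf: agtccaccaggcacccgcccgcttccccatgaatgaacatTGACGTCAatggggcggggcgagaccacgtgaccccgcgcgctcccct
Ucn: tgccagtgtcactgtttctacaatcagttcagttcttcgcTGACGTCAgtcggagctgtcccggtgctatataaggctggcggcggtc
Ucn2: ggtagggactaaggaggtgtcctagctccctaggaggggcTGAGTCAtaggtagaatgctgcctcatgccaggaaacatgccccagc

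**Figure D1:**
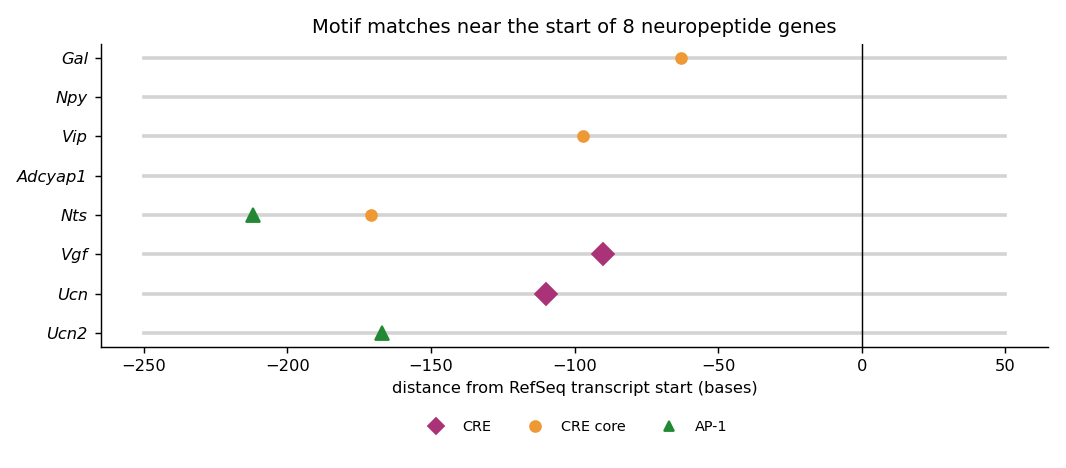
Position of motif matches in 8 members, in bases from the RefSeq transcript start (vertical line at 0); the grey bar is the stretch searched. Diamonds mark the full CRE of Vgf and Ucn, circles its core alone in Gal, Vip and Nts, and triangles AP-1 in Nts and Ucn2, all of them before the start.

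Values are deposited log2 signals, normalised by the authors together for all 6 arrays, and the level of a gene is the median polish of its probe sets. A change passed where its limma p-value, adjusted by Benjamini-Hochberg over all 13378 genes, was under a false discovery rate of 0.1, the threshold of the study. By this rule 36.3% of all genes passed, 12.9% higher and 23.3% lower in SNT. Of all changed genes, 35.7% were higher, and this share was 46.1% after cyclic loess and 56.2% after centring each array on its median. Arrays correlated at r = 0.984 to 0.986 within the naive group and at 0.958 to 0.969 within the SNT group, and SNT 1 lay nearer to the naive arrays (0.955 to 0.960) than SNT 2 (0.938 to 0.946) and SNT 3 (0.939 to 0.947). With 3 arrays in each group, an exact permutation test of a single gene cannot give a two-sided p below 0.1, so the tests rest on the fit across all genes.

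Of the 9 measured members, 7 were higher in SNT, none was lower and 2 (Nts and Crh) did not pass. The median change of the 9 was 1.33 on the log2 scale, against -0.02 over all genes. On all 7 that passed, the SNT arrays lay above every naive array, as they did for 16.8% of all genes (45.7% had groups apart in either direction). Array by array, the median member change was 1.31, 1.24 and 1.76 for SNT 1, 2 and 3. In 6 of the 7 risen members the level was lowest on SNT 1 among the SNT arrays, the array nearest to naive. Whole ganglia were measured, so that more cells making a peptide and more RNA per cell cannot be told apart.

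**Figure D2:**
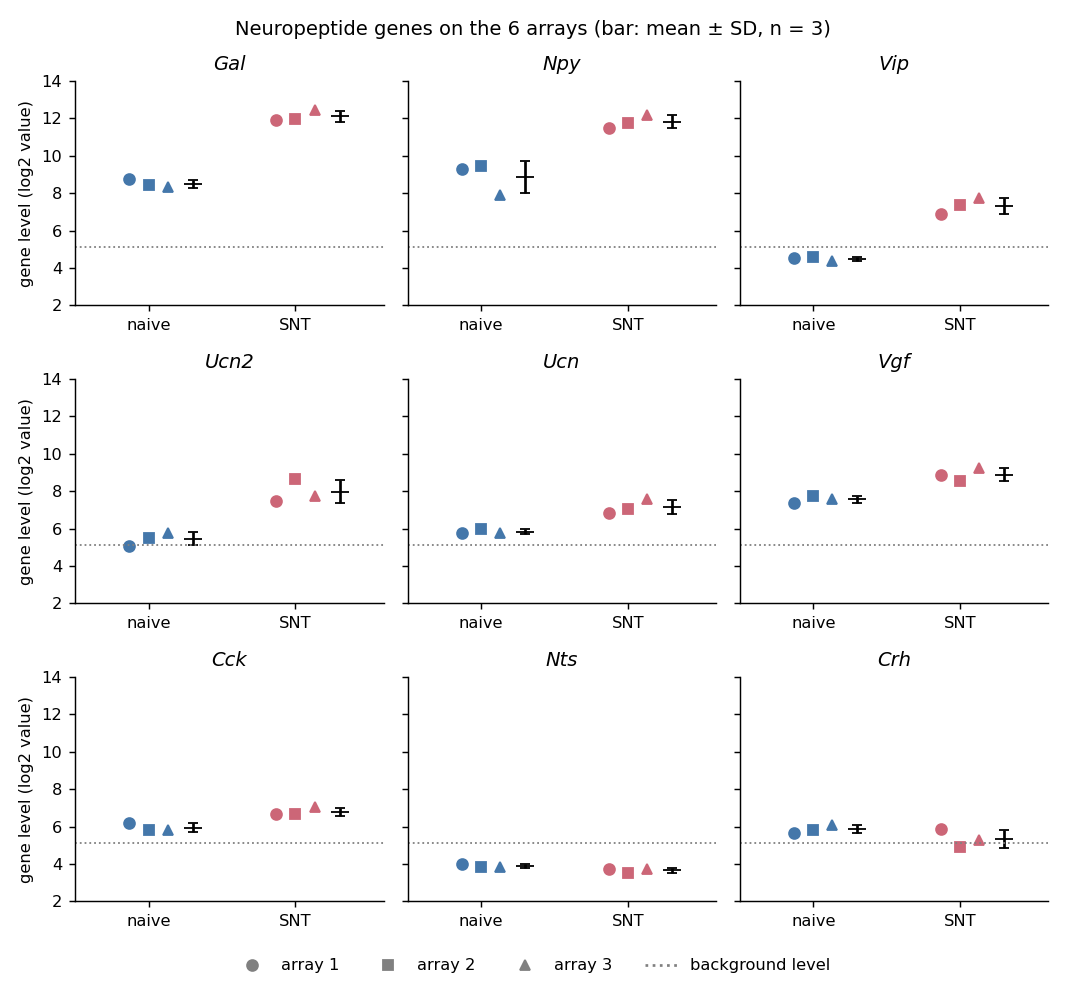
Gene level (log2 value, median polish) of the 9 measured members on each of the 3 naive (blue) and 3 SNT (red) arrays; bars are mean ± SD (n = 3) and the dotted line at 5.11 is the background level, the 25th percentile of probe set means. The groups are apart in the upper 2 rows and for Cck, and overlap for Crh.

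Gal encodes galanin, which acts through 3 G protein-coupled receptors and is a widely used mark of axotomised sensory neurones. Gal stood at 8.75, 8.45 and 8.33 in the naive pools and at 11.93, 11.95 and 12.45 in the SNT pools. The lowest SNT array was over 3 log2 units above the highest naive array. The SD was 0.22 naive and 0.30 SNT (n = 3 each), against medians of 0.09 and 0.18 over all genes. The change was 3.60 ± 0.18 (SE, adjusted p = 0.000236), a rise of 12.1-fold with a 95% interval of 9.11 to 16.2. It was the 8th largest rise of all genes.

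Npy encodes neuropeptide Y, a peptide of sympathetic neurones that large sensory neurones begin to make after axotomy. Npy stood at 9.28, 9.48 and 7.91 in the naive pools and at 11.50, 11.77 and 12.19 in the SNT pools. The naive arrays were the more scattered group, since naive 3 lay below the other naive arrays (SD 0.85 naive against 0.35 SNT), but the groups did not overlap. The change was 2.93 ± 0.40 (SE, adjusted p = 0.00351), or 7.63-fold with an interval of 3.95 to 14.7. Without naive 3 it was 2.42 (adjusted p = 0.0247). The study treats Npy as having closely similar copies in the rat genome, and signal from such a copy cannot be told apart here.

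Vip encodes vasoactive intestinal peptide, which shares a receptor family with the peptide of Adcyap1. Vip stood at 4.54, 4.58 and 4.38 in the naive pools, all under the background level of 5.11, and at 6.89, 7.38 and 7.75 in the SNT pools, all above it. The naive arrays were nearly level with each other, the SNT arrays were more spread (SD 0.11 naive and 0.43 SNT), and the groups did not overlap. The change was 2.84 ± 0.21 (SE, adjusted p = 0.000984), or 7.16-fold with an interval of 5.11 to 10.02. Since the polished naive level lay under background, this fold describes the signal and not the transcript. Of its 11 probe sets, 4 had means above background in both groups. These 4 changed by 2.98, 1.66, 1.05 and 0.30, and the last did not pass. The first of them read 7.15, 7.21 and 6.87 naive and 9.86, 9.99 and 10.34 SNT. Taking Vip from its most variable probe set alone, which is also the one with the largest change, gave 5.38.

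Set side by side on the same arrays, the change of Gal from the naive mean was 3.42, 3.44 and 3.94, that of Npy was 2.61, 2.88 and 3.30, and that of Vip was 2.39, 2.88 and 3.25. All 3 changed most on SNT 3. Since the polished Vip level lay under background on the naive arrays, its change is not ranked against the others. The most variable probe set, in each gene also the one with the largest change, gave 5.38 for Vip and 4.64 for Gal. That of Vip had a naive mean of 2.70, under background, so these values do not rank the genes either.

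Vgf encodes a granin-like precursor, named for its induction by nerve growth factor, whose fragments include the peptide TLQP-21. Vgf stood at 7.35, 7.75 and 7.59 in the naive pools and at 8.87, 8.57 and 9.24 in the SNT pools. The groups did not overlap, and Vgf was the risen member whose lowest SNT array was SNT 2 and not SNT 1. The change was 1.33 ± 0.19 (SE, adjusted p = 0.00364), or 2.52-fold with an interval of 1.86 to 3.41.

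The corticotropin releasing hormone family was split. Ucn, whose product urocortin binds both receptors of the family, stood at 5.75, 5.99 and 5.75 in the naive pools and at 6.83, 7.07 and 7.59 in the SNT pools. Its groups were apart, with a change of 1.33 ± 0.19 (SE, adjusted p = 0.00401) or 2.52-fold. The most variable of its 3 probe sets, which is also the one with the largest change, gave 2.64.

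Ucn2 encodes urocortin 2, a ligand of the receptor Crhr2. Ucn2 stood at 5.09, 5.52 and 5.79 in the naive pools, the first just under the background level of 5.11 and the others over it. The SNT pools read 7.50, 8.65 and 7.77. All SNT arrays were above all naive arrays, and SNT 2 was the highest. The change was 2.50 ± 0.31 (SE, adjusted p = 0.00272), or 5.68-fold with an interval of 3.42 to 9.41, from 2 probe sets.

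Crh encodes corticotropin releasing hormone, the hypothalamic releaser of adrenocorticotropin. Crh stood at 5.66, 5.84 and 6.10 in the naive pools and at 5.87, 4.91 and 5.27 in the SNT pools. SNT 1 lay among the naive arrays and the other two SNT arrays below them. The difference was -0.51 ± 0.24 (SE, adjusted p = 0.163) and did not pass. It passed, lower in SNT, without SNT 1 (-0.80, adjusted p = 0.0194), with array weights (-0.60, adjusted p = 0.0436), with the mean of the probe sets (-0.70, adjusted p = 0.0679) and with the most variable probe set (-1.63, adjusted p = 0.0831), whose mean was not above background. With only the probe sets above background it was -0.29 (adjusted p = 0.258).

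Cck encodes cholecystokinin, a gut and brain peptide. Cck stood at 6.21, 5.80 and 5.84 in the naive pools and at 6.66, 6.69 and 7.04 in the SNT pools. The groups did not overlap, and the gap between them was smaller than for the other risen members. The change was 0.85 ± 0.15 (SE, adjusted p = 0.00760), or 1.80-fold with an interval of 1.40 to 2.32. The 3 probe sets that rose had naive means of 5.88, 5.55 and 5.08, the last under the background level of 5.11. The remaining probe set, with a naive mean of 7.15, did not pass (-0.13, adjusted p = 0.764).

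Nts encodes neurotensin, a peptide that acts on the receptors Ntsr1 and Ntsr2 and on sortilin. Nts stood at 3.99, 3.83 and 3.81 in the naive pools and at 3.73, 3.53 and 3.74 in the SNT pools. This polished level was under background on every array, and the SNT arrays were slightly lower than the naive ones. Of its 7 probe sets 2 were above background on all naive arrays, one at 6.16, 6.17 and 5.80 naive and 5.51, 5.25 and 6.90 SNT, and the other at 5.59, 5.32 and 5.61 naive and 5.41, 4.86 and 5.30 SNT. In both of them the groups overlapped and the change did not pass (adjusted p = 0.857 and 0.393). The difference was -0.21 ± 0.10 (SE, adjusted p = 0.178) with a 95% interval of -0.45 to 0.03, so no rise of Nts was detectable on these arrays.

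At the level of single probe sets, where 15.9% of all probe sets passed after adjustment over all 226599 (5.16% higher and 10.7% lower), 37 of the 52 member probe sets were higher, 2 were lower and 13 did not pass. In 38 every SNT array lay above every naive array, as in 12.7% of all probe sets (32.4% had groups apart in either direction), and in 3 every SNT array lay below. Of the 52, 41 had a mean over all arrays above background. Every probe set of Gal (7), Npy (4), Ucn (3) and Ucn2 (2) was higher, as were 10 of 11 of Vip, 8 of 10 of Vgf and 3 of 4 of Cck. None was higher in Nts (7) or Crh (4). The 2 lower ones were 1 of Nts (-0.74, adjusted p = 0.0916), whose mean lay under background, and 1 of Crh (-0.79, adjusted p = 0.0550).

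**Figure D3:**
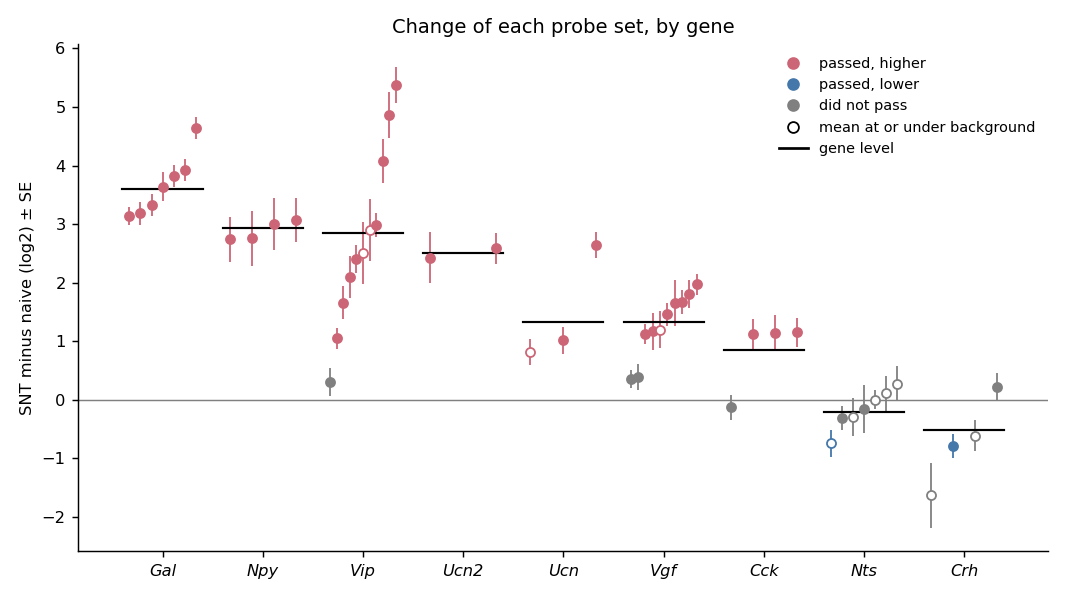
Change of each of the 52 probe sets (SNT minus naive, log2, ± SE of the fit; 3 arrays per group), ordered within each gene; the line is the gene-level change and open points had a mean at or under background. Gal probe sets lie between 3.13 and 4.64 and Vip ones between 0.30 and 5.38.

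The probe sets of a gene did not all move by the same amount. A limma test of unequal change among the probe sets above background (diffSplice F test, adjusted over the 10741 genes with 3 or more of them) passed for 19.5% of genes. It passed for 4 of the 5 members that could be tested: Vip (adjusted p = 2.40e-11), Gal (0.000360), Vgf (0.00228) and Cck (0.0488). Of the 9 Vip probe sets tested, 5 had a naive mean under background and passed the filter through the SNT arrays, as did 1 of 9 for Vgf and 1 of 4 for Cck, so their changes start from the floor. With probe sets above background in both groups, a filter chosen after seeing the data, 16.9% of 10545 genes passed, and the adjusted p was 2.79e-05 for Vip (4 probe sets), 0.000427 for Gal, 0.000792 for Vgf (8 probe sets) and 0.0385 for Cck (3 probe sets). The main test did not pass for Npy (adjusted p = 0.996), whose 4 probe sets changed by 2.74 to 3.07. Ucn, Ucn2, Nts and Crh had fewer than 3 probe sets above background. For Cck the test was lost without naive 2 (adjusted p = 0.400), without naive 3 (0.194) or without SNT 3 (0.149).

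In Vip the changes ran from 0.30 to 5.38. The probe set with the largest change read 2.85, 2.67 and 2.59 in the naive pools and 7.37, 8.31 and 8.56 in the SNT pools. The one with the smallest read 5.95, 6.53 and 6.49 against 6.35, 6.62 and 6.91, overlapping, and did not pass (adjusted p = 0.474). For 7 of its 11 probe sets the naive mean was at or under background and the SNT mean above it, so the change there is bounded by the naive signal.

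Among Vgf probe sets the largest change, 1.97 ± 0.18 (SE), came from levels of 9.02, 9.09 and 9.03 in the naive pools and 10.99, 10.82 and 11.24 in the SNT pools. In the smallest, 0.35, the groups were apart (8.03, 8.05 and 7.91 against 8.29, 8.33 and 8.43) but the change did not pass (adjusted p = 0.212). The Ucn probe sets changed by 0.82, 1.01 and 2.64. The one with 0.82 had means under background in both groups (4.17 naive and 4.99 SNT). In Cck 3 probe sets changed by 1.12 to 1.15, while the fourth, at 7.02, 7.41 and 7.03 naive and 6.85, 7.34 and 6.89 SNT, showed -0.13. Which part of the transcript each probe set covers was not examined.

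**Figure D4:**
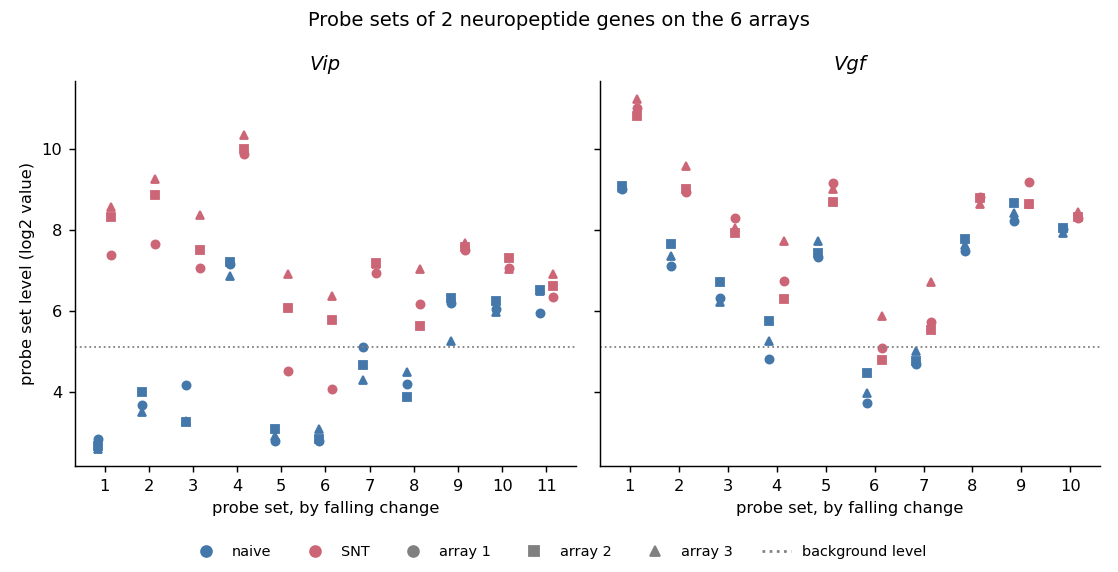
Level (log2 value) of each probe set of Vip (11) and Vgf (10) on the 3 naive (blue) and 3 SNT (red) arrays, ordered by falling change; the dotted line is the background level of 5.11. In Vip the leading probe sets start under background on naive arrays, and the last one, with a change of 0.30, has overlapping groups.

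The genes whose profile over the 6 arrays was closest to a member, by the root mean square difference of log2 values less the naive mean among 12769 non-member genes with 2 or more probe sets, were for Gal the stress transcription factor Atf3 (difference 0.17), Hamp (0.29), which encodes hepcidin, and Serpina3n (0.33), a serine protease inhibitor. For Npy they were Il24 (0.50), Tgm1 (0.50) and Cldn4 (0.55). For Vip they were Tgm1 (0.08), Il24 (0.22) and Hpd (0.27), where Tgm1 is a transglutaminase and Il24 a cytokine. This is a description over 6 arrays, without a test.

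Other genes of the peptide pathways were taken from lists, whose counts stand beside 12.9% higher and 23.3% lower over all genes. Of 19 measured genes for peptide processing and dense-core vesicles, 3 were higher, 9 were lower and 7 did not pass, with a median of -0.23. The largest changes were in the granin Scg2, at 11.21, 11.27 and 11.16 naive and 9.92, 7.39 and 7.06 SNT (-3.09 ± 0.68 SE, adjusted p = 0.0145). Chgb, also a granin, changed by -1.79 (adjusted p = 0.00288), the vesicle priming factor Cadps by -1.57 (0.00367) and Chga by -1.50 (0.00669). The higher ones were the vesicle monoamine transporter Slc18a2 (1.16), the dense-core vesicle protein Ptprn (0.58) and the protease Furin (0.51). The peptide-cutting enzyme Pcsk1 did not pass (-0.13, adjusted p = 0.524), while another such enzyme, Pcsk2, was lower (-1.39, 0.00470). The amidating enzyme Pam (-0.12, 0.515) did not pass.

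Of 18 measured receptors and binding proteins of the member peptides, 3 were higher, 8 were lower and 7 did not pass (median -0.27). The largest change was in Sorl1, a sorting receptor that binds neurotensin, at 9.04, 9.05 and 8.96 naive and 7.39, 5.98 and 6.01 SNT (-2.55 ± 0.36 SE, adjusted p = 0.00357). The cholecystokinin receptor Cckbr rose by 1.75 ± 0.18 (SE, adjusted p = 0.00188) and C3ar1, which binds the Vgf peptide TLQP-21 in rodents and is also a macrophage gene, by 1.50 (0.0135). The galanin receptor Galr1 changed by -1.38 (adjusted p = 0.00278). The other member of the 3 higher was Npy2r (0.40, adjusted p = 0.0869), whose groups overlapped.

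Of 22 measured regulators known to act on these peptide genes, 12 were higher, 2 were lower (Ntrk2, -0.71, and Ret, -0.66) and 8 did not pass (median 0.50). Atf3 showed 7.87, 7.68 and 7.77 naive and 11.34, 11.51 and 11.66 SNT, a change of 3.73 ± 0.11 (SE, adjusted p = 3.3e-05). The cytokine Il6 rose by 2.03 (adjusted p = 0.00212), and the AP-1 subunits Jun and Fos by 1.42 (0.00211) and 1.36 (0.00436). No regulator was tested for an effect on a peptide gene.

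As a comparison, of 21 other measured peptide genes 1 was higher (Adm, 0.36, adjusted p = 0.0642), 8 were lower and 12 did not pass (median -0.11). The higher count was 0 at a false discovery rate of 0.05, with the ordinary t statistic, with array weights, with the replicate block and without naive 2, naive 3, SNT 1 or SNT 2. Somatostatin, Sst, was at 10.03, 10.25 and 10.03 naive and 7.85, 6.36 and 6.44 SNT (-3.22 ± 0.37 SE, adjusted p = 0.00231). The calcitonin gene-related peptide Calcb changed by -2.02 (adjusted p = 0.0151), the substance P precursor Tac1 by -1.99 (0.00903) and Calca by -1.43 (0.0158). These lists, like the members, were chosen with earlier results of these data known, so their counts are a description.

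**Figure D5:**
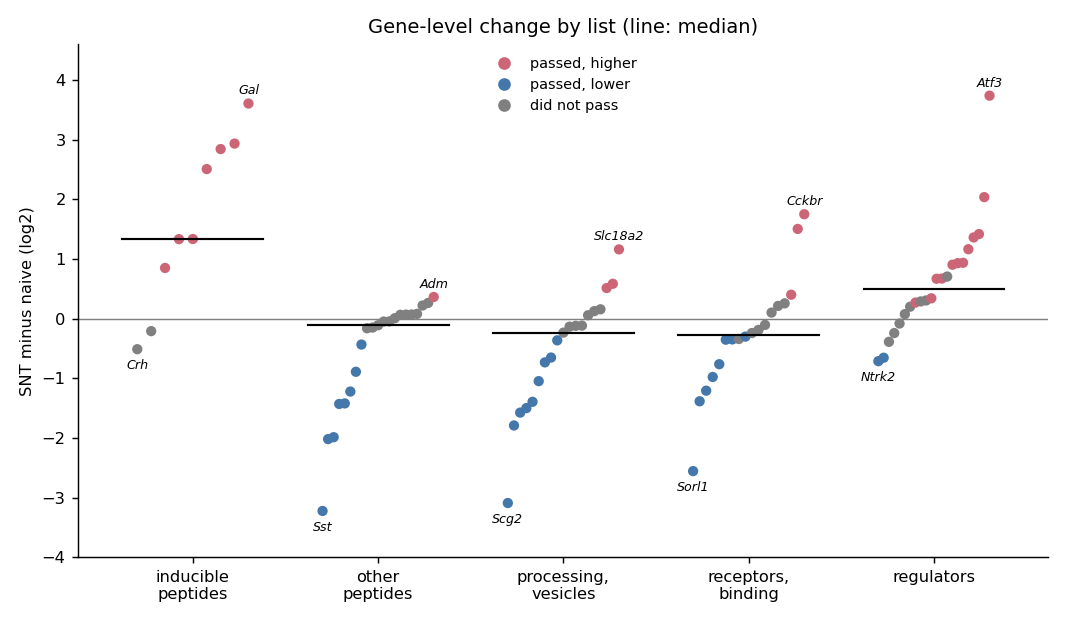
Gene-level change (SNT minus naive, log2) of each measured gene of the inducible peptides (9), other peptides (21), processing and vesicle genes (19), receptors and binding proteins (18) and regulators (22); lines are medians and colours give the call at a false discovery rate of 0.1. The medians are 1.33, -0.11, -0.23, -0.27 and 0.50.

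Markers of the cell types of the ganglion were read in the same way, again beside 12.9% higher and 23.3% lower over all genes. All 9 macrophage markers were higher (median 1.53, largest Cd68, 3.11) and their mean level ran from 6.99 to 7.44 on naive arrays and from 8.36 to 9.45 on SNT arrays. Among them, the groups of Ptprc overlapped (1.23, adjusted p = 0.0633). Of 4 T cell markers 3 were higher (median 0.91, largest Cd8a, 2.37). Of these 3, Cd2 had means under background in both groups (4.29 naive and 4.85 SNT). The marker Cd3d did not pass (0.28, adjusted p = 0.270), and its groups overlapped. Of 10 sensory neurone markers none was higher and 6 were lower (median -0.66, largest Isl1, -1.66), with mean levels of 11.8 to 11.9 naive and 10.9 to 11.5 SNT. The other 4 did not pass: Uchl1 (-0.30, adjusted p = 0.102), Prph (-0.27, 0.114), Tubb3 (-0.009, 0.960) and Stmn2 (0.001, 0.993). Satellite glia markers gave 1 higher and 3 lower of 6 (median -0.28, Fabp7, -1.31), and Schwann cell markers 4 higher and none lower of 7 (median 0.51, Egr2, 0.83). The groups of Egr2 overlapped (adjusted p = 0.0862). Sympathetic and chromaffin markers, which bear on Npy, gave none higher and 1 lower of 5 (median -0.05, Slc6a2, -0.38), with Slc18a1 under background on all arrays. No marker of 4 for endothelium (median 0.03, Cldn5, 0.24) or of 3 for skeletal muscle (median 0.07, Tnnt3, 0.34) passed, and mast cell markers gave 1 higher and 1 lower of 6 (median 0.06, Kit, -0.63), with Mcpt1, Fcer1a and Ms4a2 under background. The part of these cell types in the changes of the peptide genes was not tested.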

How the data were processed

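L5 DRG RNA of 3 naive and 3 SNT pools was hybridised to Affymetrix Rat Exon 1.0 ST arrays. The deposited log2 values, 1 per probe set, were made by the authors with RMA in the oligo package (versions not given in the sources used here). Probe sets of the core and extended confidence levels were used in the study, and levels were not separated here. RMA equalises the arrays, so a shift of most genes together would not be seen, and arrays carry no counts, so their number limits the precision. Every column of values was used.

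Of 226599 probe sets, 164162 had 1 gene symbol, 2388 several and 60049 none, and symbols were updated through RefSeq. Gene levels were medians polished over the probe sets of a symbol. Groups were compared with limma 3.58.1 in R 4.3.3 (lmFit and eBayes, group only, Benjamini-Hochberg over all genes or probe sets, false discovery rate 0.1), after the methods of the study, and diffSplice. The scripts were tested on simulated data. The background level was the 25th percentile of probe set means; it does not measure absence. Replicates are pools of separate animals, so p-values set the group difference against the spread between pools, estimated in part across all genes.

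The members and all lists were chosen with earlier results of these data known. All members were named, with the 4 largest passing changes per list. So were the marker with the largest change per cell type and the 3 genes most like Gal, Npy and Vip. Genes named only to spell out a count of 5 or fewer were picked after their values were seen, as were Pcsk1, Pcsk2, Pam, Cd2 and Ptprc.

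Alternatives were a stricter false discovery rate, other variance models, array weights, cyclic loess, median centring, the replicate block, other summaries of probe sets, a filter on low signals, symbols as annotated, and leaving out each array. For the last, gene levels were polished again without the array. A first version had kept the levels polished over 6 arrays; the change was made after both the results and an earlier analysis of these data were seen, and both versions are given.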

Additional observations from a re-analysis of the deposited data

How the results depend on the processing

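Gal, Npy, Vip, Ucn2, Ucn, Vgf and Cck kept their direction and passed under all 24 alternatives run for each, with the highest adjusted p at 0.0845 (Cck, most variable probe set), and members higher stayed at 7. Nts passed under none (adjusted p = 0.111 to 0.848). No change that passed reversed. Crh passed in 5 of 24, so that members lower became 1: with array weights (-0.60), the mean of probe sets (-0.70), the most variable probe set (-1.63) and without SNT 1, at -0.80 with the polish repeated and -0.77 with levels kept from 6 arrays. The causes were not tested. Over all genes, 4851 passed and 1731 were higher. Median centring gave 3074 higher, and the most variable probe set 2970 changed and 722 higher. Of probe sets, 36017 passed and 11699 were higher. A false discovery rate of 0.05 gave 21521 and 6100, the ordinary t statistic 19104 and 6082, and median centring 18895 higher. The 2 lower member probe sets became 0 under each of these 3 settings and 1 among probe sets above background.

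No pairing by replicate number was seen: same-numbered deviations correlated at -0.07, -0.22 and 0.06, and those of unlike numbers at -0.23 to 0.29. With deviations from means of 3 arrays, this check cannot show that the arrays were unpaired. With the replicate block 4072 genes passed, 7573 probe sets were higher and 0 member probe sets were lower; Gal was at 3.60 (adjusted p = 0.00173), and no member call changed.

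Leaving out 1 array at a time gave the following ranges, over both ways of setting gene levels. Genes changed ran from 2735 (without naive 1; 2887 without naive 2) to 5864 with the polish repeated and 6183 with levels kept, genes higher from 760 to 2785, and genes lower from 1975 (without naive 1) to 3235 and 3398. With levels kept from 6 arrays, the lowest counts were 3244 changed and 1004 higher. Genes higher moved by over 1.5 times whichever array was left out with the polish repeated: 760 without naive 1, 783 without naive 2, 995 without naive 3, 2629 without SNT 1, 1087 without SNT 2 and 1094 without SNT 3. With levels kept it moved so without naive 1 (1011), naive 2 (1004) and SNT 1 (2785). Probe sets changed ran from 13163 (without naive 1; 13176 without naive 2 and 18067 without naive 3) to 48050, and higher from 3474 to 20650 (3739 without naive 1, 3474 without naive 2, 5318 without naive 3, 6558 without SNT 2, 20650 without SNT 1). Member probe sets higher ran from 31 to 37 and lower from 0 to 4 (4 without SNT 1, otherwise 0). Members lower ran from 0 to 1. Genes with unequal probe sets ran from 526 to 3176 (526, 723 and 783 without naive 1, 2 and 3, 3176 without SNT 3) and members among them from 3 to 4. Requiring probe sets above background in both groups gave 1778 such genes and 4 members. The change ran from 3.35 to 3.72 for Gal, 2.42 to 3.23 for Npy, 2.43 to 3.06 for Vip, 0.73 to 1.04 for Cck, 1.13 to 1.49 for Vgf, 0.97 to 1.50 for Ucn, 2.17 to 2.74 for Ucn2, -0.25 to -0.07 for Nts and -0.80 to -0.37 (polish repeated) or -0.77 to -0.29 (levels kept) for Crh. Of the lists, regulators higher ran from 7 to 16 and receptors lower from 5 to 10.

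Signals near background limit the folds of Vip and Ucn2, of single probe sets of Cck, Ucn and Vgf, and the readings of Nts. Pools of 4 animals hide the spread between animals.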
